A study of Mus musculus with 30 samples.

Results

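The miR-15, miR-16, miR-103 and miR-107 group was followed through 8 mouse miRNA hairpins, Mir15a, Mir15b, Mir16-1, Mir16-2, Mir103-1, Mir103-2, Mir107 and Mir195a, of the 2202 hairpins of the GENCODE M21 annotation. A read was counted for the group when the whole read matched the sense strand of one of these hairpins without a mismatch. In this way 163916 reads of 342 distinct sequences were collected from 30 libraries, and 1 of these reads also matched a hairpin outside the group. The libraries were made from the cortex of 6-month-old mice, named prefrontal cortex in the study, from wild-type littermates (WT) and from hemizygous 5xFAD mice (AD), both on the C57BL/6J background and of both sexes. 5xFAD mice carry human transgenes with familial Alzheimer's disease mutations under the Thy1 promoter, which is active in neurons, so the AD group models the amyloid side of the disease. Each genotype was sequenced by a standard small RNA protocol (traditional-seq, in 7 libraries of each genotype) and by PANDORA-seq (in 8 of each), in which the gel-cut small RNA is treated with AlkB, which removes certain base methylations, and with T4PNK, which repairs RNA ends, before the library is built. The labels do not give the sex behind a library, nor whether the libraries of both protocols came from the same mice.

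MicroRNAs are cut from hairpin precursors by Drosha and Dicer, and 1 arm of the resulting duplex is usually kept by an Argonaute protein while the other arm is degraded. The kept strand finds its target messenger RNAs mainly through its seed, bases 2 to 8 from the 5′ end. The miR-15 and miR-16 family is known as a brake on the cell cycle, with cyclins and BCL2 among its targets, and miR-103 and miR-107, which lie in introns of pantothenate kinase genes, are known as regulators of metabolism and of DICER1 and are abundant in brain. The group is held together by related seeds. All mature arms below are from RefSeq on GRCm38, written 5′ to 3′ with the seed in capitals, and are shown because the seeds define the 2 sub-families and because the last bases of miR-103-3p and miR-107-3p decide which reads can tell them apart. The first 4 sequences share the seed AGCAGCA.
miR-15a-5p: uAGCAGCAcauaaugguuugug
miR-15b-5p: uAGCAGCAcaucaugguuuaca
miR-16-5p: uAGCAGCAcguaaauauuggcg
miR-195a-5p: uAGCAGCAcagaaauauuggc
miR-103-3p: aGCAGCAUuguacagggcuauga
miR-107-3p: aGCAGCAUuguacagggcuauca
The 3p arms that return in the results carry other seeds.
miR-16-1-3p: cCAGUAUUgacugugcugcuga
miR-195a-3p: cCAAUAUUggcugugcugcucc
miR-15a-3p: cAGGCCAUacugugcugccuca

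On GRCm38, Mir15a (chr14:61632027-61632110, minus strand) and Mir16-1 (chr14:61631880-61631972, minus strand) lay 54 bases apart within Dleu2, a long non-coding RNA gene; Mir15a was intronic in every annotated transcript and Mir16-1 overlapped an annotated exon. The paralogous pair Mir15b (chr3:69009772-69009835) and Mir16-2 (chr3:69009902-69009996) lay 66 bases apart in an intron of Smc4, a condensin subunit gene. Mir103-1 (chr11:35782396-35782481), Mir103-2 (chr2:131288052-131288137) and Mir107 (chr19:34820687-34820773, minus strand) lay in introns of Pank3, Pank2 and Pank1. Mir195a (chr11:70235042-70235135) overlapped no annotated gene, had Mir497 at 241 bases on its own strand and Mir497b on the opposite strand. Mir16-1 and Mir16-2 give the same miR-16-5p, and Mir103-1 and Mir103-2 give the same miR-103-3p. The mature miR-103-3p and miR-107-3p share their first 21 bases and 22 of 23 in all, and differ only by G22C, counted from the 5′ end with the base of miR-103-3p first. A read that ends before base 22 therefore belongs to either, and such reads were kept as a class of their own.

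Traditional-seq libraries held 9370669 to 17053412 reads, of which 35.9% to 50.3% matched a miRNA hairpin without a mismatch, and PANDORA-seq libraries held 54926347 to 105876141 reads, of which 1.51% to 5.54% did. Levels below are therefore given as hairpin RPM, the reads of an arm scaled to 1000000 hairpin-matched reads of its library, or as RPM, scaled to 1000000 reads of any kind. A read spans a whole small RNA, so no length correction was made. How readily each sequence entered a library was not measured, so orders and shares of different arms compare reads and not molecules. Neuronal miRNAs (Mir124a, Mir9, Mir128, Mir137 and Mir138 hairpins) summed to between 67373 and 585976 hairpin RPM, the lowest in AD PANDORA library 1, and Mir208a, a cardiac miRNA, had 1 read in all traditional-seq libraries and 0 in PANDORA-seq. Other miRNAs of the list of other organs (Mir122, Mir1a, Mir208a and Mir375) were present. Mir122 had 28177 reads in traditional-seq and 144481 in PANDORA-seq, Mir375 had 4565 and 37972, and Mir1a-1 had 211388 and 2493. The list had a median of 3629 hairpin RPM over PANDORA-seq (2127 to 9413). Some libraries stood apart. The list of other organs, mostly through muscle Mir1a, stood at 23864 hairpin RPM in AD traditional library 4 against a median of 1334 over traditional-seq, and the TMM factors that correct for library composition were 0.61 and 1.60 in WT traditional libraries 1 and 2 and 0.53 in AD PANDORA library 1. In bulk tissue a difference in the number of cells of a type cannot be told apart from a difference in RNA per cell.

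miR-103-3p carried most of the group. In traditional-seq it ranged from 821 to 2852 hairpin RPM with a median of 1705, and ranked 49th of 2272 arms with a read. The next arm, miR-16-5p, ranged from 31.4 to 198 with a median of 81.1 and ranked 178th. Both arms were present in all 14 libraries, and the lowest library for miR-103-3p stood above the highest library for miR-16-5p. miR-103-3p alone gave 83.5% ± 4.24 (SD, n = 14) of the group's reads in traditional-seq, together with miR-107-3p and the shared class it gave 87.0% ± 3.55, and miR-16-5p gave 5.04% ± 2.26. In PANDORA-seq the same shares were 39.8% ± 9.23, 66.4% ± 13.5 and 7.16% ± 2.06 (n = 16), and miR-16-1-3p and miR-195a-3p, at 1.5% ± 0.71 and 4.12% ± 1.91 in traditional-seq, gave 11.3% ± 3.47 and 10.8% ± 11.5.

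The remaining arms fell into a middle and a low tier. In traditional-seq the medians in hairpin RPM were 78.9 for miR-195a-3p, 35.8 for miR-107-3p, 28.7 for the class shared by miR-103-3p and miR-107-3p, 35.4 for miR-195a-5p and 25.7 for miR-16-1-3p. The low tier held miR-15b-5p (median 2.99, range 1.55 to 6.92), miR-15a-5p (median 2.16, range 0.242 to 4.23) and miR-15b-3p (median 1.57, a read in 13 of 14 libraries). The miR-15 members thus lay well under miR-16-5p of the same precursor clusters. At the bottom, miR-15a-3p had 4 reads, miR-16-2-3p 4, miR-103-2-5p 2 and miR-107-5p 2 over all 14 traditional-seq libraries, and miR-103-1-5p had none of its own. Within-library ratios of neighbours in this order were tested by exact sign-flip permutation with Benjamini-Hochberg adjustment over 9 pairs. The pairs follow the order of the same libraries' mean log2 levels, which departs in places from that of the medians. These tests therefore describe how far neighbours were separated and are not independent evidence of the order. miR-103-3p exceeded miR-16-5p in 14 of 14 libraries (log2 ratio 4.19, adjusted permutation p = 0.000549), miR-195a-3p exceeded miR-107-3p in 12 of 14 (1.12, adjusted exact p = 0.00906), miR-16-1-3p exceeded miR-15b-5p in 14 of 14 (3.15, adjusted exact p = 0.000549) and miR-15b-5p exceeded miR-15a-5p in 11 of 14 (0.94, adjusted exact p = 0.00906). The other 5 neighbour pairs, among them miR-16-5p and miR-195a-3p, did not differ beyond their spread.

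The order was rearranged in PANDORA-seq. miR-103-3p still led (range 64.03 to 448 hairpin RPM, median 179.9), followed by the class shared with miR-107-3p (22.3 to 178, median 119.6) and then by miR-16-1-3p (27.7 to 102.7, median 45.8), miR-195a-3p (13.4 to 154, median 32.8) and miR-16-5p (14.9 to 54.3, median 31.98). Of 10 neighbour pairs, 4 differed by the same exact test, namely miR-103-3p over the shared class (15 of 16 libraries, adjusted exact p = 0.000305), the shared class over miR-16-1-3p (15 of 16, adjusted exact p = 0.00102), miR-16-5p over miR-107-3p (16 of 16, adjusted exact p = 0.000305) and miR-15a-3p over miR-15b-5p (13 of 16, adjusted exact p = 0.00519). The trio of miR-16-1-3p, miR-195a-3p and miR-16-5p was not separated when reads of all lengths were counted. With reads of 18 to 26 nt, miR-16-5p exceeded miR-16-1-3p in 15 of 16 libraries (log2 ratio 1.11, adjusted exact p = 0.000275), and miR-15a-3p was not ranked. miR-195a-5p was near the floor, with a median of 2.47 and a read in 14 of 16 libraries.

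**Figure D1:**
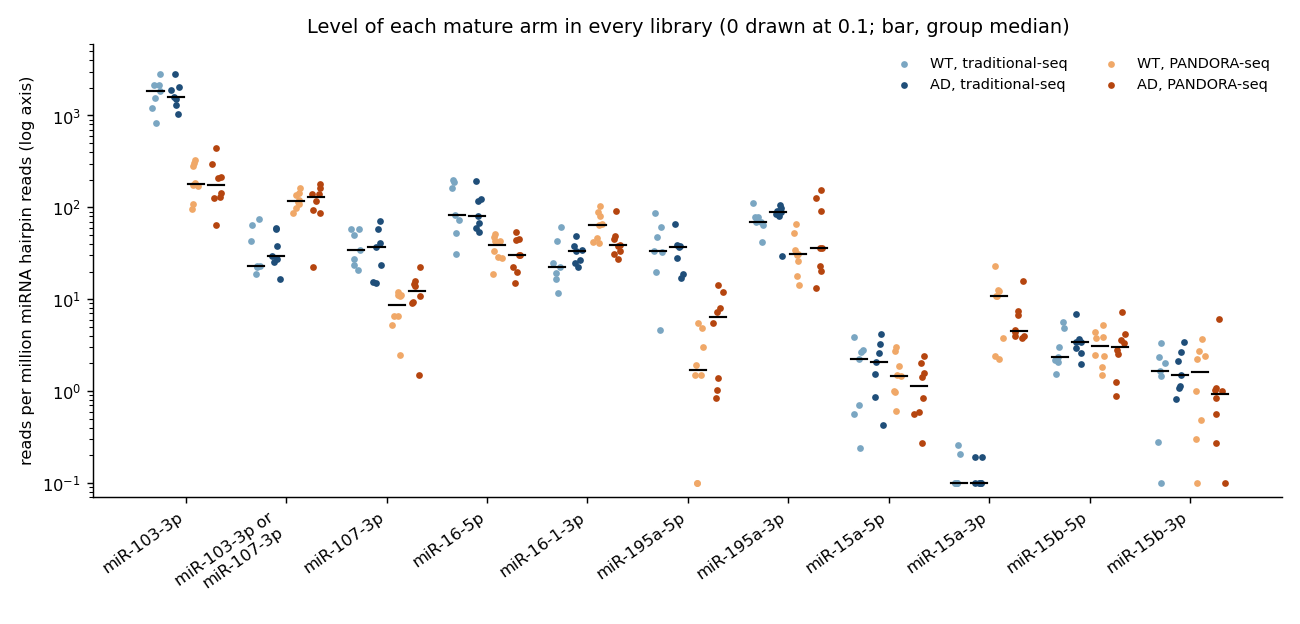
Each point is 1 library, placed by the level of a mature arm in hairpin RPM on a log axis, for WT and AD in both protocols (7, 7, 8 and 8 libraries), with a bar at the group median and 0 drawn at 0.1. miR-103-3p is highest in both protocols (median 1705 in traditional-seq, 179.9 in PANDORA-seq), the genotypes overlap for every arm shown, and miR-15a-3p rises from near 0 to a median of 5.69.

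The first question of the design was whether the AD cortex differed from WT. For the group as a whole in traditional-seq, WT libraries ranged from 1053 to 3362 hairpin RPM and AD libraries from 1335 to 3205, and in PANDORA-seq WT ranged from 315 to 698 and AD from 323 to 834. The genotypes overlapped almost fully in both protocols. The means were 2139 ± 790 in WT against 2073 ± 609 in AD in traditional-seq (log2 of AD over WT -0.04, exact permutation p = 0.861) and 492 ± 144 against 493.1 ± 175 in PANDORA-seq (0.00, exact permutation p = 0.988). In RPM they were 889 ± 293 against 879 ± 331 (-0.02, exact permutation p = 0.949) and 12.5 ± 5.52 against 15.2 ± 5.47 (0.28, exact permutation p = 0.338), and the adjusted exact p was 0.988 for all 4 tests. The numbers of mice that the study gives for each group equal the numbers of libraries, so a library was taken as a mouse.

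No arm of the group was called between genotypes in either protocol. In traditional-seq, edgeR's quasi-likelihood test called 0% of 521 arms (adjusted p below 0.05 together with more than a 2-fold change), and 0 of the 9 tested read classes of the group. At an unadjusted p under 0.05 it had 0 of the 9, beside 9 of 521 over all arms. edgeR's likelihood ratio test and DESeq2 called 0 of the group's classes. The 9 tested classes were miR-103-3p, miR-107-3p, their shared class, miR-16-5p, miR-16-1-3p, both arms of Mir195a, miR-15a-5p and miR-15b-5p, and the other arms were too low for the count filter. miR-103-3p ranged from 821 to 2852 (median 1828) in WT and from 1035 to 2805 (median 1582) in AD, and its fitted log2 fold change was 0.05 (SE 0.21, edgeR adjusted p = 0.998). miR-16-5p ranged from 31.4 to 198 (median 81.8) in WT and from 53.4 to 194 (median 80.5) in AD, with -0.02 (SE 0.39, edgeR adjusted p = 0.998). For both arms the AD range lay inside the WT range. The fitted log2 fold changes of the other 7 classes ran from -0.11 for miR-195a-5p to 0.36 for miR-15a-5p, beside a median of 0.02 over all arms tested.

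In PANDORA-seq the same test called 0.139% of 717 arms, 1 arm outside the group (miR-1291), and 0 of the 7 tested classes of the group. edgeR's likelihood ratio test and DESeq2 also called 0 of the 7. By the quasi-likelihood test 1 of the 7 had an unadjusted p under 0.05, beside 91 of 717 over all arms, a similar share. Mir15b had no tested arm here. The class with the unadjusted p under 0.05 was miR-195a-3p, which ranged from 14.3 to 66.7 hairpin RPM (median 31.0) in WT and from 13.4 to 154 (median 36.3) in AD. AD libraries 1, 6 and 7 stood at 154, 126 and 90.7, above every WT library, and the other 5 AD libraries stood at 13.4 to 36.4, within the WT range. The fitted log2 fold change was 1.35 (SE 0.60, edgeR adjusted p = 0.362). It fell to 0.63 without AD library 1, and to 0.17 (SE 0.46, edgeR adjusted p = 0.943) without AD libraries 1 and 6, an alternative chosen after the data were seen. AD libraries 1 and 6 also stood apart in the erythroid list (Mir451a, Mir144 and Mir486), which summed to 29561 and 21653 hairpin RPM against 3121 to 11823 in WT, while AD library 7 was at 11991, close to the highest WT library. This was Mir486 alone, at 29421 and 21362 in AD libraries 1 and 6 against 2924 to 11525 in WT. The erythroid markers Mir451a and Mir144 were not raised there, with 129 and 253 for Mir451a against 177 to 804 in WT and 11.02 and 38.2 for Mir144 against 20.5 to 97.4. Choroid plexus miRNAs (Mir204 and Mir211) summed to 7833, 10810 and 4994 in AD libraries 1, 6 and 7 and to 4752 in AD library 4, where miR-195a-3p was at 20.1, against 2050 to 4577 in WT, and AD library 1 was the lowest PANDORA-seq library for miR-103-3p and for the neuronal, vascular, oligodendrocyte, and microglia and leukocyte lists. The part of these lists in the miR-195a-3p level was not tested. Among the rest, miR-107-3p had a median of 8.71 in WT and 12.4 in AD (log2 fold change 0.62, SE 0.36, edgeR adjusted p = 0.529), and miR-103-3p, its shared class and miR-16-5p had fitted values between 0.01 and 0.07. The other 2 classes had lower medians in AD. miR-16-1-3p had a median of 64.9 in WT (40.6 to 102.7) and 38.5 in AD (27.7 to 92.0), with a log2 fold change of -0.35 (SE 0.31, edgeR adjusted p = 0.711) that turned to 0.03 with reads of 18 to 26 nt, and miR-15a-3p a median of 10.9 in WT (2.27 to 23.2) and 4.54 in AD (3.82 to 15.7), with -0.44 (SE 0.51, edgeR adjusted p = 0.805), or -0.71 to -0.04 with 1 library left out. The ranges of both overlapped.

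**Figure D2:**
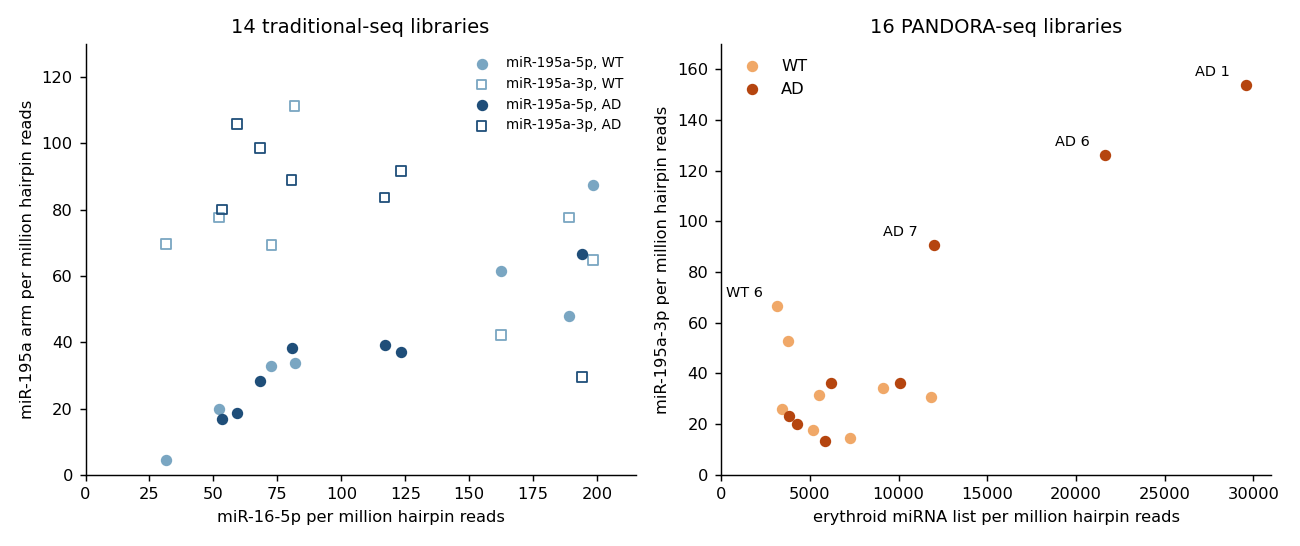
On the left, each of the 14 traditional-seq libraries is placed by miR-16-5p on the x axis and by miR-195a-5p (filled) or miR-195a-3p (open squares) on the y axis, all in hairpin RPM. On the right, each of the 16 PANDORA-seq libraries is placed by the summed erythroid list, mostly Mir486, and by miR-195a-3p; AD libraries 1, 6 and 7 are highest at 154, 126 and 90.7 for miR-195a-3p, and the highest WT library stands at 66.7.

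The genotype difference itself was compared between protocols in 1 model over all 30 libraries. It called 0% of 967 arms and 0 of the 9 tested classes of the group by edgeR's quasi-likelihood test, with 57 arms at an unadjusted p under 0.05, and the likelihood ratio test and DESeq2 called 0 of the group as well. The only class of the group with an unadjusted p under 0.05 was miR-195a-5p, with an interaction of 2.08 on the log2 scale (SE 0.84, edgeR adjusted p = 0.717). Its PANDORA-seq level ranged from 0 to 5.46 hairpin RPM in WT, with a read in 6 of 8 libraries, and from 0.836 to 14.4 in AD, so the fit rested on 39 WT and 122 AD reads. The fixed list of relatives and neighbours outside the group (Mir322, Mir497, Mir497b and Mir503) had 0 arms called between genotypes, with miR-497a-5p at 0.42 (SE 0.45) and miR-503-3p at -0.17 (SE 0.43) in traditional-seq and miR-503-3p at 0.55 (SE 0.33) in PANDORA-seq.

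The second factor of the design was the protocol, and the group was lower in PANDORA-seq. The libraries of both protocols also differed in depth and in the longest deposited read (42 nt in traditional-seq, 45 nt in PANDORA-seq), which cannot be told apart here from the enzymatic treatment. In RPM the group fell from 884 ± 300 (n = 14) in traditional-seq to 13.9 ± 5.49 (n = 16) in PANDORA-seq, a mean log2 difference of -6.04, and in hairpin RPM from 2106 ± 679 to 492 ± 155, a difference of -2.09. The libraries of both protocols did not overlap on either scale, with 482 to 1498 against 5.52 to 22.4 and 1053 to 3362 against 315 to 834. Both permutation tests gave 1e-05, the smallest p that 100000 resamples can give. Hairpin-matched reads of any kind were a smaller part of PANDORA-seq libraries, and the group was lower among those reads as well.

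Among all arms, edgeR called 79.7% of 858 between protocols, 26.8% lower and 52.9% higher in PANDORA-seq, and 7 of the 9 tested classes of the group, 6 lower and 1 higher. Lower were miR-103-3p with a log2 fold change of -4.48 (SE 0.23, edgeR adjusted p = 7.06e-19), miR-195a-5p with -4.54 (SE 0.50), miR-107-3p with -3.29 (SE 0.29), miR-16-5p with -2.96 (SE 0.25), miR-195a-3p with -1.93 (SE 0.37) and miR-15b-5p with -1.41 (SE 0.27), each with an edgeR adjusted p of 1.35e-05 or smaller. The values of miR-103-3p and miR-107-3p leave out reads too short to tell these apart, which form the shared class. Such reads were 2.06% of miR-103-3p and miR-107-3p reads in traditional-seq and 36.8% in PANDORA-seq. Part of both falls is therefore a move of reads into the shared class, and its size was not tested. The median over all arms tested was 1.36. The 6 classes called lower, which include both arms of Mir195a, thus lay on the opposite side of the typical arm. With all reads as the library size in place of TMM that median was -2.17, 533 of 859 arms were called lower and 200 higher, and the 11 tested classes of the group were all called lower. miR-15a-3p was not tested there. The relatives outside the group were lower as well, miR-322-3p by -3.73 (SE 0.40), miR-497a-5p by -1.78 (SE 0.35) and miR-503-3p by -1.58 (SE 0.29) on the TMM scale, all called.

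The 3 remaining classes were not called lower, among them the class that took up the short reads of miR-103-3p and miR-107-3p. The class too short to tell miR-103-3p from miR-107-3p had 0.30 (SE 0.23, edgeR adjusted p = 0.207) and miR-16-1-3p -0.45 (SE 0.22, edgeR adjusted p = 0.0597), while miR-15a-3p was called higher with 5.33 (SE 0.53, edgeR adjusted p = 1.79e-11). The last value rests on 4 reads in 14 traditional-seq libraries and thus on the prior count of the fit, against 275 reads, present in 16 of 16 libraries at 2.27 to 23.2 hairpin RPM, in PANDORA-seq. When only reads of 18 to 26 nt were counted, miR-16-1-3p was called lower at -2.03 (SE 0.25) and miR-15a-3p was too low to be tested. The names of the deposited counts carry a code that recurs in both protocols, and the labels do not say what it stands for. Taken as a block, this code gave 10 of 12 classes called, 9 lower and 1 higher (1129 of 1375 over all arms), and the shared class at 0.48 and miR-16-1-3p at -0.55 were again not called. The permutation tests between protocols did not use it.

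**Figure D3:**
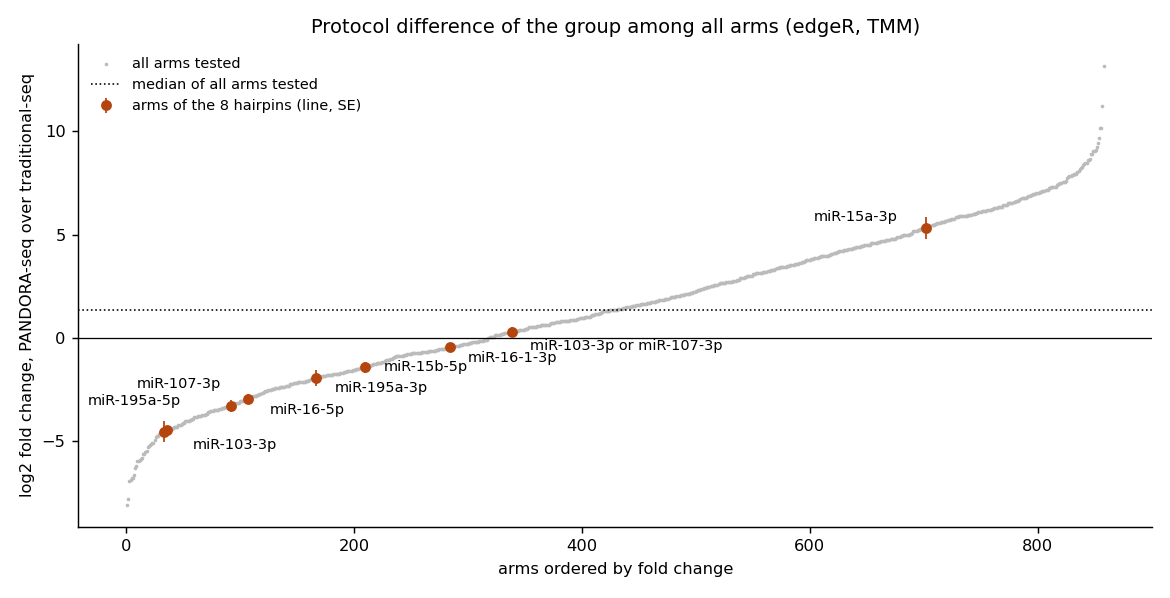
Each grey point is 1 of 858 arms, ordered on the x axis by its log2 fold change of PANDORA-seq over traditional-seq (y axis, edgeR with TMM); the classes of the group are marked with a line of 1 SE, and the dotted line is the median of all arms, 1.36. The 6 classes of the group called lower reach down to -4.54, for miR-195a-5p, and miR-15a-3p lies in the upper part at 5.33.

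Read lengths differed as sharply as levels. Reads of miR-103-3p and miR-107-3p together were 23 nt long, the annotated length, in 76.9% to 84.5% (median 80.6%) of reads in traditional-seq and in 7.67% to 15.6% (median 9.97%) in PANDORA-seq, where 22 nt (49.6% ± 5.35) and 21 nt (29.7% ± 6.49) were the main lengths. The libraries of the protocols did not overlap. The mean length dropped from 22.87 ± 0.06 to 21.65 ± 0.10 nt, and the share of reads too short to tell miR-103-3p from miR-107-3p rose from 2.06% ± 0.84 to 36.8% ± 6.29 (adjusted permutation p = 1.27e-05 for each, over 19 measures). miR-16-5p was shorter than its annotated 22 nt in both protocols, with 21 nt as its main length in traditional-seq (47.6% ± 7.01) and 20 nt in PANDORA-seq (50.9% ± 7.73), and its mean length dropped from 21.32 ± 0.11 to 20.56 ± 0.50 nt (adjusted permutation p = 2.37e-05). For miR-195a-3p the 22-nt share dropped from 51.7% ± 4.66 to 23.8% ± 7.99 (adjusted permutation p = 1.27e-05). The shortening was at the 3′ end, since 99.9% ± 0.22 and 99.8% ± 0.52 of miR-16-5p reads and 99.2% ± 0.32 and 97.5% ± 0.80 of miR-103-3p and miR-107-3p reads began at the annotated base in traditional-seq and PANDORA-seq. Among all hairpin reads pooled, the 22-nt share was 54.0% ± 3.24 in traditional-seq against 15.1% ± 0.90 in PANDORA-seq. The 21-nt share was 24.1% ± 3.97 against 40.7% ± 2.72. Pooled shares also depend on which arms were frequent in a protocol. Whether single arms outside the group were shortened was not tested.

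**Figure D4:**
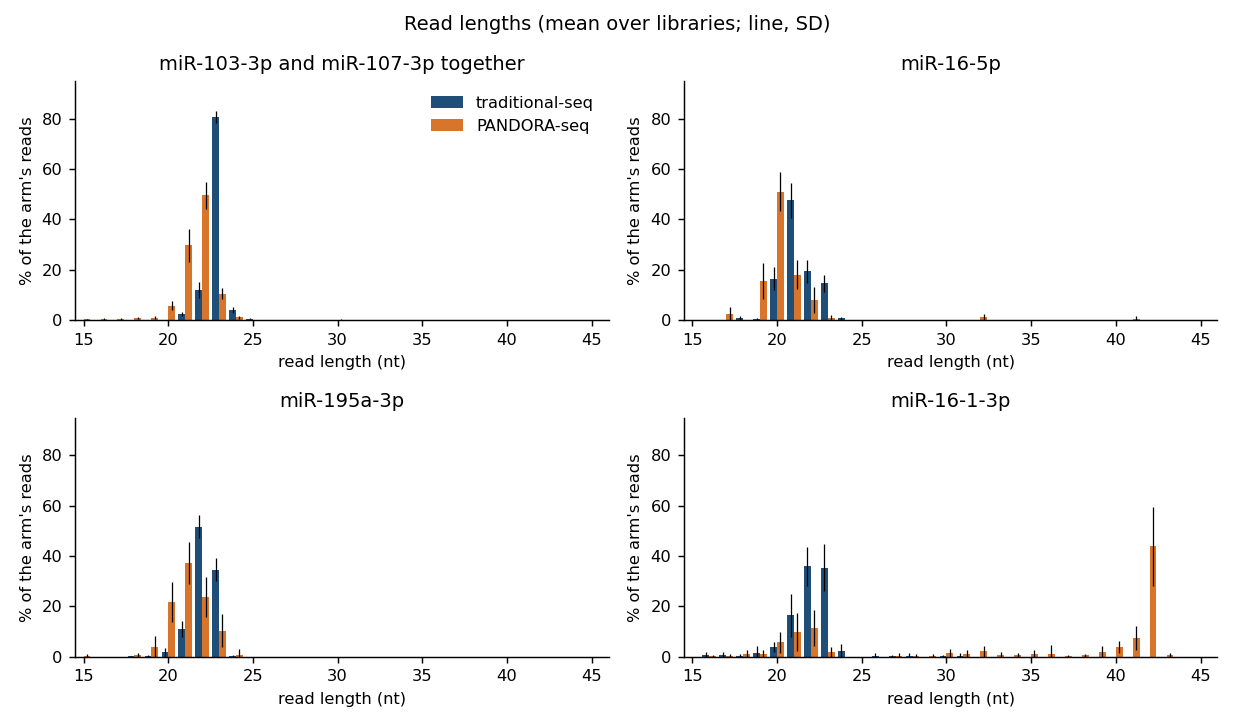
Bars give the mean share of an arm's reads at each read length in nt over 14 traditional-seq and 16 PANDORA-seq libraries, with a line of 1 SD. The main length of miR-103-3p and miR-107-3p together moves from 23 to 22 nt and that of miR-16-5p from 21 to 20 nt, while 43.9% of miR-16-1-3p reads in PANDORA-seq are 42 nt long.

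The 3′ ends of miR-103-3p and miR-107-3p differed from each other within the same libraries. Among reads that started at the annotated base and were 22 or 23 nt long, the 23-nt share in traditional-seq was 83.6% to 94.1% for miR-103-3p (mean 88.2% ± 2.94) and 28.6% to 52.6% for miR-107-3p (mean 38.7% ± 8.54), lower for miR-107-3p in 14 of 14 libraries (exact sign-flip permutation p = 0.000122). In the 13 of 16 PANDORA-seq libraries with at least 10 such reads of both, it was 17.8% ± 3.35 against 4.02% ± 5.47, lower for miR-107-3p in 13 of 13 (exact sign-flip permutation p = 0.000244), and over all 16 libraries miR-107-3p had only 16 reads of 23 nt. Since 22-nt reads are told apart by their last base alone, the same reads with a base that matches neither miRNA were counted. In traditional-seq 1613 reads of 22 nt ended in the C of miR-107-3p, beside 1518 in A and 491 in T, which match neither, and 13720 in the G of miR-103-3p. At 23 nt the counts were 999 with C, 69 with A, 32 with T and 101612 with G. The 22-nt reads that match neither thus outnumbered those of miR-107-3p in traditional-seq, whose level there includes the latter, and the part of reads with such a last base in the difference between the ends was not tested. In PANDORA-seq the 22-nt counts were 339 with C, 33 with A, 3 with T and 5995 with G. Of the reads long enough to tell, miR-107-3p made up 2.13% ± 0.88 in traditional-seq and 5.06% ± 2.52 in PANDORA-seq (adjusted permutation p = 0.000123). This share pools read lengths, and the protocols differed in their parts of 22- and 23-nt reads. Among 22-nt reads alone, C was less frequent beside G in PANDORA-seq (339 beside 5995) than in traditional-seq (1613 beside 13720). At 23 nt it was 16 beside 1253 against 999 beside 101612. The share at 1 length was not tested.

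Reads with 1 extra base beyond the hairpin sequence were left out of the levels and counted apart. In traditional-seq they made up 26.7% ± 8.49 of miR-16-5p reads (with an extra A in 1547 of 3015 and an extra T in 1258), 31.0% of miR-195a-3p reads and 22.2% of miR-16-1-3p reads, and in PANDORA-seq 2.23% ± 3.26, 3.56% and 3.19% (adjusted permutation p = 1.33e-05 for each of these 3 arms). For miR-195a-5p the share was 21.8% ± 8.18 against 3.68% ± 4.70 in the 7 PANDORA-seq libraries with at least 10 reads of it, and for miR-107-3p 17.8% ± 5.15 against 2.53% ± 4.66 in 13 such libraries, neither tested. For miR-103-3p the share was 16.1% ± 3.90 against 19.9% ± 5.03 (adjusted permutation p = 0.0266), and the extra base was T in 18955 of 22758 reads in traditional-seq. The mean share was thus lower in PANDORA-seq for each of these arms but miR-103-3p. The miR-103-3p share leaves out extra bases on the 21-nt form shared with miR-107-3p. For that form, 1518 reads had an extra A and 491 an extra T in traditional-seq. Reads of 21 nt of both miRNAs together numbered 3145, but 709 of them matched miR-103-3p alone and are not the shared form. In PANDORA-seq 33 reads had an extra A and 3 an extra T, beside 3621 reads of 21 nt, of which 29 matched miR-103-3p alone. The 4 arms tested were those with at least 10 reads in every library, the measure was added after the data were seen, and a sequencing error at the last base gives the same kind of read.

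Few reads could be traced to 1 of 2 gene copies. For miR-103-3p, 121276 traditional-seq reads fit both copies, 757 fit only Mir103-2 (in 14 of 14 libraries) and 53 only Mir103-1, while in PANDORA-seq 15 fit only Mir103-2 and 70 only Mir103-1. Such reads extend past the mature arm into sequence where the copies differ, and an added A can turn an extended Mir103-1 read into a match of Mir103-2, so they do not rank the copies. For miR-16-5p, 58 traditional-seq reads fit only Mir16-1 and 8 only Mir16-2, against 7310 that fit both, and in PANDORA-seq 41 and 0 against 1186.

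The balance between the 2 arms of a hairpin also moved with the protocol. miR-195a-3p made up 30.7% to 93.8% of the Mir195a arm reads in traditional-seq (median 70.5%, mean 67.7% ± 18.2) and 80.7% to 100% in PANDORA-seq (median 93.9%, mean 92.1% ± 5.72, adjusted permutation p = 1.27e-05), so its 3p arm, not the arm with the miR-15 family seed, was the more frequent in most libraries of both protocols. miR-16-1-3p made up 10.7% to 41.9% of the reads of miR-16-5p and miR-16-1-3p together in traditional-seq (mean 25.0% ± 10.4) and 44.7% to 76.5% in PANDORA-seq (mean 60.6% ± 10.1, adjusted permutation p = 1.27e-05). The libraries did not overlap for this share. With reads of 18 to 26 nt alone its rise was 8.92 percentage points and no longer passed the threshold.

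What set miR-16-1-3p apart was a long fragment. In traditional-seq its reads averaged 22.16 ± 0.45 nt and 64.6% ± 6.47 began at the annotated base, and in PANDORA-seq they averaged 34.1 ± 3.67 nt and 21.2% ± 10.9 did (adjusted permutation p = 1.27e-05 for each). A single 42-nt sequence, from base 38 to base 79 of the Mir16-1 hairpin, gave 43.9% ± 15.7 of the arm's reads. It runs from the first base after miR-16-5p through the loop to the last base of miR-16-1-3p. A second 42-nt sequence covered bases 28 to 69 of the Mir15a hairpin, from within miR-15a-5p through the loop to near the end of miR-15a-3p. Both are shown as read, with T for U and the loop between the annotated arms in capitals, because they were the main long reads counted for miR-16-1-3p and miR-15a-3p in PANDORA-seq (938 of 2042 and 220 of 275 reads).
Mir16-1 fragment: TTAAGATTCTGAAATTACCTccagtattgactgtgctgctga
Mir15a fragment: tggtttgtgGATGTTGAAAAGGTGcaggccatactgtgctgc

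The Mir16-1 fragment had 938 reads in 16 of 16 PANDORA-seq libraries and the Mir15a fragment 220 reads in 16 of 16, and both had 0 reads in 14 traditional-seq libraries, which allows at most 0.0422 hairpin RPM over those libraries together. This limit covers counting error only, and the deposited traditional-seq reads end at 42 nt, the length of both fragments, while PANDORA-seq reads run to 45 nt. Reads of 42 nt made up 0.0484% ± 0.034 of all traditional-seq reads and 3.04% ± 0.80 of all PANDORA-seq reads. The part of this length limit in the long-read differences was not tested. With reads of any length that covered at least 10 loop bases, Mir16-1 had 1401 in PANDORA-seq, 1358 of them running into the 3p arm, and 126 in traditional-seq, 2 of them running into the 3p arm and 115 of them the bare 20-nt loop. Mir15a had 264 such reads against 1, and 261 of its 264 ran into the 3p arm, where miR-15a-3p had 275 reads in all. Thus most of the miR-15a-3p level in PANDORA-seq came from fragments that include the loop. The paralogous hairpins Mir15b and Mir16-2 had 0 loop reads in both protocols, and Mir103-1, Mir103-2, Mir107 and Mir195a had 21, 6, 5 and 8 in PANDORA-seq. Reads of 42 nt made up 0.000746% of all hairpin reads in traditional-seq and 0.309% ± 0.12 in PANDORA-seq. Hairpin reads of 42 nt thus also occurred outside the group, though their share among all hairpin reads was far below the 43.9% among miR-16-1-3p reads in PANDORA-seq.

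**Figure D5:**
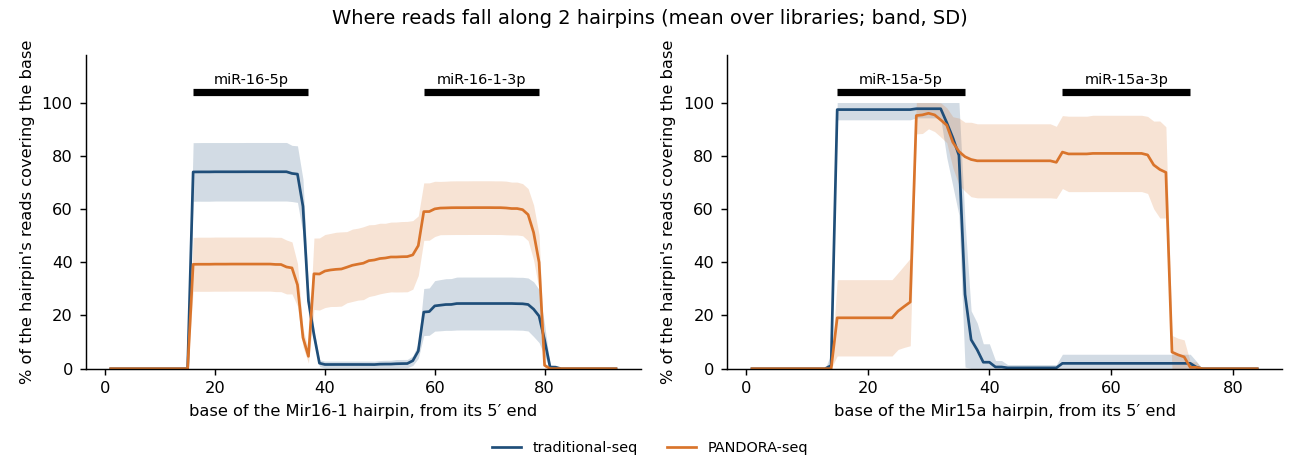
The share of a hairpin's reads that cover each base, counted from the hairpin's 5′ end, is shown as the mean over 14 traditional-seq and 16 PANDORA-seq libraries with a band of 1 SD, for Mir16-1 on the left and Mir15a on the right; black bars mark the annotated arms. Traditional-seq coverage falls to near 0 in the loop of both hairpins, whereas PANDORA-seq coverage spans the loop and the 3p arm, falling off after bases 79 and 69, the ends of the fragments with 938 and 220 reads. In Mir16-1 it drops to 4.65% at base 37, the last of miR-16-5p, and starts again at 35.7% at base 38.

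In the processing measures AD and WT did not differ past the threshold in either protocol, with 0 of 25 measures in traditional-seq and 0 of 19 in PANDORA-seq at an adjusted exact permutation p under 0.05, and 0 of 25 and 2 of 19 at an unadjusted one. The 2 were the 22-nt share of miR-16-5p, which ranged from 2.22% to 9.82% (mean 5.45% ± 2.52) in WT and from 0% to 19.7% (mean 10.7% ± 5.78) in AD (exact permutation p = 0.0340, adjusted p = 0.365 by permutation), and the mean length of miR-16-1-3p reads, which ranged from 33.1 to 39.5 nt (mean 35.98 ± 1.86) in WT and from 26.2 to 37.1 nt (mean 32.3 ± 4.199) in AD (exact permutation p = 0.0384, adjusted p = 0.365 by permutation). Both ranges overlapped. The Mir16-1 fragment itself ranged from 21.8 to 48.6 hairpin RPM (median 34.2) in WT and from 4.40 to 51.8 (median 12.2) in AD, with means of 34.2 ± 10.7 and 17.4 ± 15.8 (exact permutation p = 0.0289, adjusted over both fragments 0.0578 by permutation). In RPM the exact permutation p was 0.212, and for the Mir15a fragment (7.88 ± 5.12 in WT, 4.91 ± 3.17 in AD) it was 0.175 in hairpin RPM. The fragments were noticed before they were tested. Of the shares that bear on the pairs above, miR-107-3p made up 2.17% ± 0.60 in WT and 2.09% ± 1.15 in AD of the reads that tell it from miR-103-3p in traditional-seq, the reads too short to tell were 37.8% ± 6.57 and 35.8% ± 6.29 in PANDORA-seq, and miR-195a-3p made up 66.2% ± 19.5 and 69.3% ± 18.2 of Mir195a arm reads in traditional-seq, with an adjusted exact permutation p of 0.810 or more. In PANDORA-seq the miR-107-3p share was 4.35% ± 2.84 in WT and 5.76% ± 2.10 in AD, and the miR-195a-3p share 93.9% ± 5.33 and 90.3% ± 5.86 (adjusted exact permutation p = 0.594 for each).

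Across the 14 traditional-seq libraries, miR-16-5p and miR-195a-5p, which share their seed and come from different chromosomes, rose and fell together. Of 28 pairs of arms compared on log2 levels, this pair had Pearson's r of 0.93 and Spearman's rho of 0.96 (permutation p = 1e-05 for each, the smallest possible, adjusted 0.00028), with r of 0.95 within WT, 0.95 within AD, and 0.91 without the 2 libraries farthest from the median. miR-107-3p followed miR-16-5p less closely (r 0.78 and rho 0.86, adjusted permutation p = 0.0139 and 0.00140, r 0.69 without the 2 farthest). For miR-107-3p and miR-195a-5p, rho was 0.86 (adjusted permutation p = 0.00149) and r 0.63 (adjusted permutation p = 0.0715). In contrast, the 2 arms of the Mir195a hairpin had r of -0.35 and rho of -0.30 (adjusted permutation p = 0.352 and 0.502). In PANDORA-seq none of 15 pairs passed an adjusted permutation p of 0.05, the smallest being 0.315. Those pairs left out miR-195a-5p, so its pairs with miR-16-5p, miR-107-3p and miR-195a-3p were not examined in PANDORA-seq. All points share the library's hairpin total as their denominator.

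Arms of the group, among them miR-195a-5p with its rho of 0.96 to miR-16-5p, were not ranked in the next comparison. Over the 490 arms compared in traditional-seq, the profiles outside the group most like miR-16-5p were the Mir126a 5p arm, miR-29a-3p and miR-376b-5p (Spearman's rho 0.97, 0.96 and 0.96 over 14 libraries, beside a median of 0.18 over all arms), and those most like miR-103-3p and miR-107-3p together were miR-144-5p, miR-329-5p and miR-3068-5p (0.88, 0.81 and 0.78, beside a median of 0.06). Over 613 arms and 16 libraries in PANDORA-seq they were miR-7650-3p, miR-3535 and the Mir1291 3p arm for miR-16-5p (0.83, 0.74 and 0.72) and the Mir185 5p arm, miR-382-3p and the Mir23b 3p arm for miR-103-3p and miR-107-3p together (0.96, 0.91 and 0.89). No arm appeared in both protocols' lists.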

How the data were processed

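Small RNA of mouse cortex was measured in 30 libraries in 4 groups set by GEO's labels. The authors deposited, for each library, read counts per distinct sequence after adapter removal, without normalization or annotation; the submitters' processing notes name mm39, but the deposited counts carry no coordinates. The study's own counting, with SPORTS1.1, was not used here.

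The members and lists were chosen with earlier results of these data known. Reads, of 15 to 42 nt in the traditional-seq files and 15 to 45 nt in the PANDORA-seq files, were matched whole, sense and without mismatch to 2202 GENCODE M21 hairpins (GRCm38) and assigned to the RefSeq mature arm they overlapped (1022 hairpins had one), or to the set of arms that fit. Every member arm was named, with 4 related or neighbouring hairpins and the 3 most similar arms per protocol. Arm counts went into edgeR 4.0.16, run in R 4.3.3 (TMM, filterByExpr with a smallest count of 10 and total of 15, quasi-likelihood test, library size from hairpin reads) and called at a Benjamini-Hochberg adjusted p below 0.05 with more than a 2-fold change. The SE beside an edgeR log2 fold change is the absolute fold change over the square root of the quasi-likelihood F statistic. It is an approximation, and edgeR itself did not give it. The study's likelihood ratio test, DESeq2 1.42.0 and other scalings, filters, read lengths and left-out libraries were alternatives. On simulated counts with 200 arms changed 4-fold, 172 of 183 tested were called for each genotype comparison, with 4 (traditional-seq) and 6 (PANDORA-seq) unchanged arms called.

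Single measures were compared by two-sided exact permutation over all 3432 (7 against 7) or 12870 (8 against 8) splits, or by 100000 resamples between protocols, where the smallest p is 1e-05. Shares that were tested needed 10 reads in a library, and the coverage along a hairpin had no such floor. A pseudocount of 0.5 reads was used for ratios within a library. Reads carry no molecular identifiers. Python 3.11.15, numpy 2.4.6, pandas 2.3.3 and matplotlib 3.10.9 were used.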

Additional observations from a re-analysis of the deposited data

Results flagged for a closer look

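Of 72 sets of 7 or 8 libraries checked by Dixon's gap test, 10 held a library far from the others of its own group, where chance gives about 1 in 20. AD traditional library 2 gave 4 of them: miR-15b-5p at 6.92 hairpin RPM, or reads scaled to 1000000 hairpin-matched reads (group median 3.40), miR-195a-3p at 29.6 (median 89.0), a miR-107-3p share of 4.48% of the reads that tell it from miR-103-3p (median 1.79%) and a 3p share of Mir195a arm reads of 30.7% (median 71.2%). WT traditional library 4 had the highest share of miR-103-3p and miR-107-3p reads too short to tell, 3.84% (median 1.91%), and AD traditional library 5 the shortest miR-16-1-3p reads, 21.16 nt (median 22.24 nt).

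In PANDORA-seq, among the 8 AD libraries, AD library 3 had the highest miR-15a-3p, 15.7 hairpin RPM (median 4.54), AD library 5 the highest miR-16-1-3p, 92.0 (median 38.5), and the longest mean read of miR-103-3p and miR-107-3p together, 21.78 nt (median 21.64 nt), below the highest WT library in each case, and AD library 1 the highest share of 23-nt reads of that pair, 15.6% (median 9.20%). No explanation of these libraries was tested.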

How the results depend on the processing

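No alternative changed a genotype call of the group, and the protocol calls kept their number and direction except where given here. With all reads as the library size, 11 classes were called between protocols in place of 7, all lower, with the class shared by miR-103-3p and miR-107-3p at -2.31 and miR-16-1-3p at -3.02. With 1 non-templated 3′ base counted, that shared class was at -0.20, and with reads of 18 to 26 nt miR-16-1-3p was at -2.03 and all 7 calls were lower, where 223 of 661 arms over all were called lower and 280 higher. With that read length the protocol difference of the miR-16-1-3p share was 8.92 percentage points and did not pass the threshold, and those of annotated 5′ starts were -0.283 for miR-103-3p and miR-107-3p together, -0.616 for miR-103-3p and 0.0556 for miR-16-5p. A code shared by libraries of both protocols, taken as a block, gave 10 calls, 9 lower. Leaving out 1 library at a time gave 7 calls each time, and leaving out the low-count filter gave 10. Over all arms, the block and the missing filter gave 1129 and 2097 protocol calls in place of 684. Genotype calls over all arms, 0 in traditional-seq and 1 in PANDORA-seq, were 5 and 44 without the filter, and in PANDORA-seq 4 by the likelihood ratio test, 3 by DESeq2, 2 without AD libraries 1 and 6, and 0 with all reads as the library size, reads of 18 to 26 nt or the replicate block; the interaction, with 0, had 4 without the filter and 1 and 2 by those tools.

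Genotype differences near 0 changed sign. In traditional-seq, miR-103-3p was at -0.019 (all reads as library size), -0.012 (1 extra 3′ base counted) and -0.0077 (reads of several miRNAs left out), the shared class at -0.0205 (all reads), miR-107-3p at -0.029 (extra base) and -0.014 (reads of several miRNAs left out), miR-16-5p at 0.0096 (no low-count filter) and 0.0030 (extra base), and the group level at 0.036 in RPM and 0.013 in hairpin RPM (extra base). In PANDORA-seq, the shared class was at -0.025 without hairpins of predicted genes, miR-16-1-3p at 0.027 with reads of 18 to 26 nt, and the group level in hairpin RPM at -0.012 as a mean log2 difference. miR-16-5p was at -0.0028 without the low-count filter, -0.026 with reads of 18 to 26 nt, -0.055 without hairpins of predicted genes and -0.054 without AD libraries 1 and 6. Leaving out predicted genes or those 2 libraries was chosen after seeing the data.

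With 1 library left out at a time, the log2 differences of AD over WT in traditional-seq ran from -0.030 to 0.14 for miR-103-3p, -0.16 to 0.31 for the shared class, -0.28 to 0.20 for miR-107-3p, -0.36 to 0.16 for miR-16-5p, -0.43 to 0.15 for miR-195a-5p, and for the group level from -0.20 to 0.10 in RPM and -0.18 to 0.10 in hairpin RPM. In PANDORA-seq they ran from -0.077 to 0.21 for miR-103-3p, -0.025 to 0.19 for the shared class, -0.088 to 0.11 for miR-16-5p and -0.15 to 0.093 for the group level in hairpin RPM, and between protocols from -0.13 to 0.43 for the shared class. Others kept their sign but came near 0, miR-15a-5p at 0.047 to 0.63 and miR-15b-5p at 0.00062 to 0.49 in traditional-seq and miR-15a-3p at -0.71 to -0.042 in PANDORA-seq. Where no cause is given, the cause was not tested.

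The labels do not say whether replicate numbers pair WT with AD libraries. For libraries of the same number, the correlations of their deviations from the group means ran from -0.48 to 0.44. Libraries of different numbers were not compared, so these values cannot decide whether the numbers mark pairs. With the replicate number as a block, 0 classes were called in either protocol, miR-107-3p was at -0.12 in traditional-seq and miR-195a-3p at 0.71 in PANDORA-seq. miR-15a-5p, miR-15b-3p and miR-195a-5p had 46, 39 and 161 reads over 16 PANDORA-seq libraries, under the count filter, and were not tested between genotypes there.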
